A study of Homo sapiens with 6 samples.

Results

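The 50 genes described here drive or mark the cell cycle and DNA replication. They are the cyclins of the D, E, A, B and G types, the cyclin-dependent kinases (CDKs) and CDK inhibitors, the pocket proteins and E2F factors, the genes that license and copy DNA, and the genes of mitosis. They were chosen by gene name out of 19211 named genes in the mRNA-seq table. All 50 were found there, on 88 of 38438 transcripts, and 49 could be tested, since their transcripts averaged 1 or more RPKM (reads scaled to transcript length and library size). The exception was CDKN1C, the inhibitor p57.

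Levels of mRNA and binding of LARP1 were measured in HEK293T, a line derived from human embryonic kidney. The cells were either growing or had mTOR made inactive by 2.5 µM PP242, an ATP-competitive inhibitor of the mTOR kinase. The length of the PP242 treatment is not given in the sources used here. Each condition had 2 mRNA-seq libraries, from cells without 4-thiouridine. Each condition also had 1 library of PAR-CLIP (crosslinking of LARP1, an RNA-binding protein, to RNA that holds 4-thiouridine), from cells labeled with 100 µM 4-thiouridine for 14 hr and irradiated with 150 mJ/cm2 of ultraviolet light. All cells express the SV40 large T antigen, which binds the pocket proteins and p53, so the line is a limited model for the G1 checkpoint.

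The 4 mRNA-seq libraries were alike in depth, at 1 to 1.06 times that of the first growing library, with 36046 to 36149 transcripts above 0. Of the markers looked up for the line, LIN28B, NEFM, INA and VIM lay between 15.7 and 238.6 RPKM in every library, and PAX2 stayed below 0.14 RPKM. The markers of liver (ALB), leukocytes (PTPRC) and muscle (MYH7) did not exceed 0.0402 RPKM, and COL1A1 of fibroblasts lay at 1.76 to 1.84 RPKM.

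In a dividing cell, mTOR signaling and growth factors raise D-type cyclins, which with CDK4 and CDK6 phosphorylate the retinoblastoma protein and release E2F factors. E2F then drives the genes of S phase, among them cyclin E, CDC6 and the MCM helicase. Genes of G2 and mitosis are switched on later by the MuvB complex with B-MYB and FOXM1, which act through a short promoter element called the CHR. Inhibitors of mTOR are known to slow passage through G1. In bulk RNA, fewer cells in a phase and less RNA per cell cannot be told apart.

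The promoters of the members show both kinds of element. RefSeq promoters (GRCh38.p14, 250 bases before to 50 bases after the start of the gene) were found for 41 of the 50 genes. The letters of 4 E2F elements (TTTCCCGC, TTTGGCGC, TTTCGCGC and TTTGCCGC) and of 2 CHR elements (TTTGAA and TTCGAA) were searched on both strands. Some E2F letters overlap, since TTTGGCGC followed by GAAA also holds TTTCGCGC on the other strand. These stretches of the promoters of genes with a lower mRNA level under PP242 carry E2F letters, in capitals, on the strand of the gene.
CDC25A (chr3:48188439-48188476, minus strand): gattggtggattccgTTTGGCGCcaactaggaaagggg
E2F1 (chr20:33686386-33686433, minus strand): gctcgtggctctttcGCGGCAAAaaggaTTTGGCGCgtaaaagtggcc
E2F2 (chr1:23531253-23531290, minus strand): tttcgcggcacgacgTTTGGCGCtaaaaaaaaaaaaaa
GMNN (chr6:24775318-24775355, plus strand): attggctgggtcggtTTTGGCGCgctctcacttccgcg

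A further pair of windows is shown for comparison, since PCNA and CDT1 hold E2F letters and were not called in either direction.
PCNA (chr20:5126659-5126696, minus strand): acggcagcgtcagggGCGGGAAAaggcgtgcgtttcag
CDT1 (chr16:88803739-88803776, plus strand): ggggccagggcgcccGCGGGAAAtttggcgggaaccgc

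The next windows come from genes with a higher mRNA level under PP242 and carry CHR letters, in capitals.
PLK1 (chr16:23678845-23678880, plus strand): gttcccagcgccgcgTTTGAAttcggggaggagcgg
CCNB2 (chr15:59105102-59105137, plus strand): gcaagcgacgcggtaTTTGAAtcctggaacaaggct
MKI67 (chr10:128126432-128126485, minus strand): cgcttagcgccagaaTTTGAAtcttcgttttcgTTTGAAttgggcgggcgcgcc
TOP2A (chr17:40418027-40418105, minus strand): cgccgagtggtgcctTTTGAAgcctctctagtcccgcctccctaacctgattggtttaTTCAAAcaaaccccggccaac

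In PLK1 and CCNB2 the CHR letters began 29 bases before the start of the gene, and in MKI67 they began 47 and 29 bases before it. In TOP2A they lay further out, at 194 and 151 bases. E2F letters were present in 5 of the 9 promoters of members called lower, in 10 of the 23 of members not called and in 0 of the 9 of members called higher. CHR letters were present in 0 of 9, 7 of 23 and 5 of 9, in the same order. Among the 8227 expressed genes with a promoter, 6.95% held E2F letters and 14.8% held CHR letters, against 36.6% and 29.3% of the members. The members were chosen by name from pathways in which E2F and the CHR act, so their higher shares are no independent result. These are matches of letters in a short window. Most members with E2F letters (10 of 15) and most with CHR letters (7 of 12) were not called. Several of the calls behind these counts, among them GMNN, CCNB2 and CDC20, did not survive leaving out a library.

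**Figure D1:**
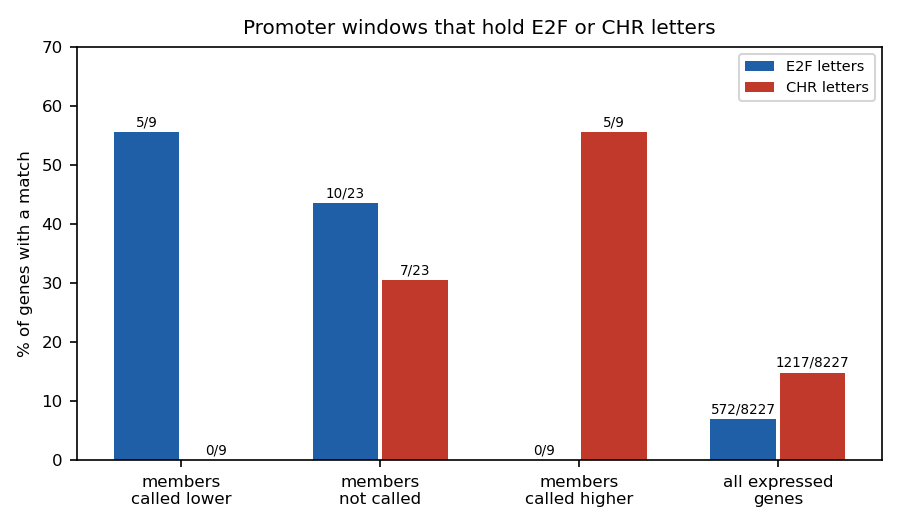
The share of genes, in %, whose promoter window holds E2F letters (blue) or CHR letters (red), with the number of genes above each bar, for members called lower, not called or called higher after PP242 and for all expressed genes. E2F letters are found in 5 of 9 members called lower, 10 of 23 not called and 0 of 9 called higher. CHR letters are found in 0 of 9, 7 of 23 and 5 of 9, in the same order. Among expressed genes, 6.95% hold E2F letters and 14.8% hold CHR letters.

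The first comparison asks how mRNA levels of the cell cycle genes differed between growing and mTOR-inactive conditions. Among genes of the entry into S phase, cyclins D1, E1 and E2, E2F1, E2F2, CDC6 and CDC25A were lower with PP242. Cyclins D2 and D3, CDK4, CDK6, E2F3 and CDT1 were not called. Of the 10 genes of the mitosis group 6 were higher, among them PLK1, AURKA, TOP2A and MKI67, and 1 was lower, the same CDC25A. The shares over all genes tested were 3.86% higher and 8.47% lower. The B-type cyclins were higher by under 10%, with calls that did not survive leaving out a library. The calls of CDC20, E2F1 and MKI67 were also lost in all or some of those fits, as given below. The inhibitors p21 (CDKN1A) and p27 (CDKN1B) moved in opposite directions. The MCM helicase, PCNA and most other genes of DNA synthesis were within 6% of their growing level.

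Differences were tested with limma on log2(RPKM + 1), with adjustment over all 21014 tested transcripts and 1 transcript per gene, the most abundant. Of the 49 members tested, 10 were called higher and 12 lower at an adjusted p under 0.05, and 27 were not called. Among all 11319 genes tested, 3.86% were called higher and 8.47% lower. The log2 differences of the members ran from -0.71 to 0.34 with a median of -0.026, beside -0.0050 over all genes. No member differed by as much as a factor of 2 on the RPKM scale.

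Replicate libraries lay close to each other. The median distance between replicates, as a log2 difference, was 0.033 under growing and 0.027 under mTOR-inactive conditions for the members, while the median distance between the conditions was 0.12. Over all genes these distances were 0.042, 0.040 and 0.061. Both PP242 libraries lay above both growing libraries for 16 members and below them for 25, where 27.8% and 31.8% of all genes did so. With 2 libraries against 2, an exact permutation test of a single gene cannot go below p = 0.333, so every call rests on the spread that limma shares across transcripts.

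That dependence limits the weaker calls. Without the filter on low RPKM, 0 members were called higher and 2 lower by limma, with 13 and 20 at an unadjusted p under 0.05; CCND1 and CDC25A kept their calls. When each of the 4 libraries was left out in turn, 12 to 15 of the 22 calls remained, and 11 remained each time: CCND1, CCNE1, CCNE2, CDKN1A, E2F2, CDC6 and CDC25A lower, and CDKN1B, PLK1, AURKA and TOP2A higher. The calls of CDK2, CCNB1, CCNB2, GMNN, MCM10, RRM2 and CDC20 were lost whichever library was left out, with limma adjusted p between 0.0615 and 0.180. CCNG2 lost its call without PP242 library 2 or either growing library, E2F1 without either growing library, AURKB without PP242 library 2 or growing library 2, and MKI67 without PP242 library 2 or growing library 1. For these 4 genes the limma adjusted p rose to at most 0.139, 0.0733, 0.115 and 0.0628. No called member changed sign in any alternative.

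**Figure D2:**
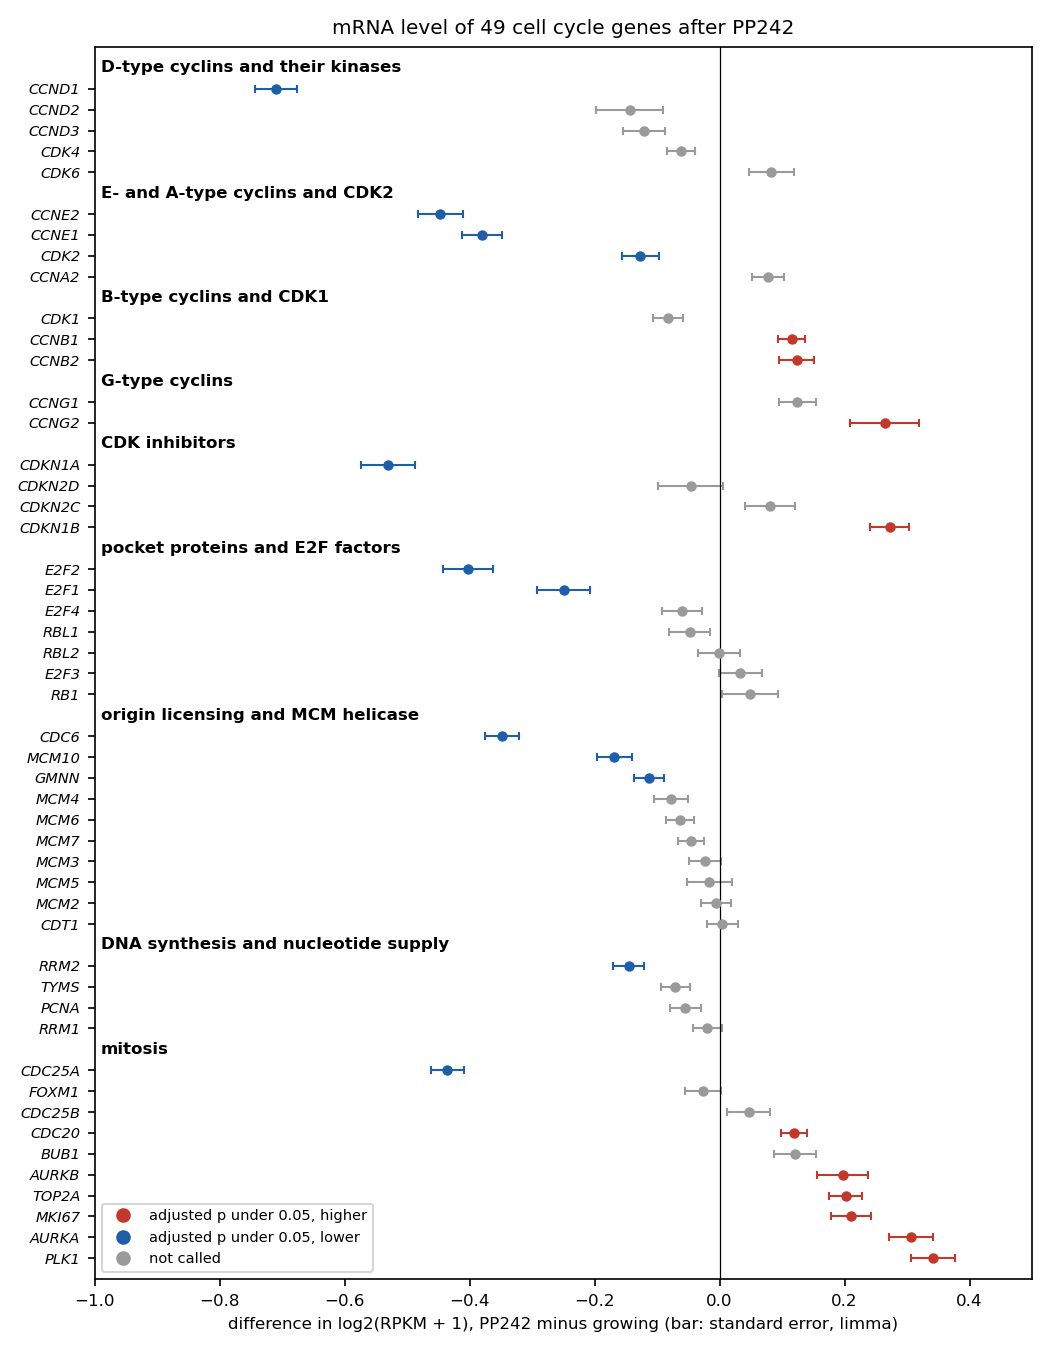
Difference in log2(RPKM + 1) between PP242 and growing libraries for the 49 tested members, grouped by role, with the standard error from limma as bars. Points in color have an adjusted p under 0.05, with 12 lower (blue) from CCND1 at -0.71 and 10 higher (red) up to PLK1 at 0.34.

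D-type cyclins start the passage through G1. CCND1, which encodes cyclin D1 and lies on chromosome 11 (GRCh37, chr11:69455924-69469242), was at 17.5 and 17.0 RPKM in the growing libraries and at 10.4 and 9.91 RPKM in the PP242 libraries. It fell by 41.1%, the largest change among the members (log2 difference -0.71 ± 0.034 SE, limma adjusted p = 0.000645). The groups lay far apart, and the replicates within each differed by less than 0.5 RPKM.

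CCND2, for cyclin D2, was at 4.40 and 4.58 RPKM growing and at 3.74 and 4.21 RPKM with PP242, and was not called (limma adjusted p = 0.145). CCND3, for cyclin D3, had a log2 difference of -0.12 (limma adjusted p = 0.0815). The kinases that the D-type cyclins activate were not called either. CDK4, the most abundant of this group, was at 127.5 and 125.1 RPKM growing and at 121.1 and 120.9 RPKM with PP242, and CDK6 was at 4.35 and 4.49 RPKM against 4.65 and 4.83 RPKM. Of the 5 genes of this group, 4 were lower at an unadjusted limma p under 0.05: CCND1, CCND2, CCND3 and CDK4. In these 4 both PP242 libraries lay below both growing libraries, as for 31.8% of all genes tested.

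E-type cyclins activate CDK2 at the entry into S phase, and both fell. CCNE1 was at 15.3 and 15.0 RPKM growing and at 11.2 and 11.6 RPKM with PP242 (fell by 24.7%, log2 difference -0.38 ± 0.031 SE, limma adjusted p = 0.00271). CCNE2 was at 13.4 and 13.6 RPKM growing and at 9.34 and 9.90 RPKM with PP242 (fell by 28.6%, log2 difference -0.45 ± 0.036 SE, limma adjusted p = 0.00252). In both genes each PP242 library lay below each growing library by more than 3 RPKM.

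CDK2 was at 27.3 and 27.9 RPKM growing and at 25.6 and 24.8 RPKM with PP242. It fell by 8.70% with a limma adjusted p of 0.0496, close to the threshold. CCNA2, for cyclin A2 of S phase and G2, was at 54.0 and 52.6 RPKM growing and at 56.0 and 56.6 RPKM with PP242, and was not called (log2 difference 0.08, limma adjusted p = 0.113). By the sum over its transcripts CDK2 was as abundant as CCNA2 in growing cells, at 53.5 and 53.3 RPKM.

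B-type cyclins activate CDK1 for entry into mitosis, and both rose by under 10%. CCNB1 was at 96.6 and 97.9 RPKM growing and at 105.2 and 105.6 RPKM with PP242 (log2 difference 0.12 ± 0.022 SE, limma adjusted p = 0.0290). CCNB2 was at 37.4 and 37.2 RPKM growing and at 41.5 and 39.9 RPKM with PP242 (log2 difference 0.12 ± 0.028 SE, limma adjusted p = 0.0498). Both rises were small and outside the range of the replicates. CDK1 itself was at 33.8 and 33.5 RPKM growing and at 31.5 and 31.9 RPKM with PP242, and was not called (log2 difference -0.08, limma adjusted p = 0.0919).

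G-type cyclins do not drive the cycle in the way of the others. CCNG2, a gene that FOXO factors switch on and that is linked to cell cycle arrest, was at 4.83 and 5.08 RPKM growing and at 5.80 and 6.52 RPKM with PP242 (rose by 24.3%, log2 difference 0.26 ± 0.055 SE, limma adjusted p = 0.0391). CCNG1, a p53 target, was at 32.9 and 34.2 RPKM growing and at 36.5 and 36.8 RPKM with PP242. It missed the threshold at a limma adjusted p of 0.0515 and was called higher in 5 of the 13 alternatives.

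Among the CDK inhibitors, CDKN1A and CDKN1B went opposite ways. CDKN1A, which encodes p21 and is a main target of p53, was at 3.77 and 3.73 RPKM growing and at 2.39 and 2.18 RPKM with PP242 (fell by 39.0%, log2 difference -0.53 ± 0.043 SE, limma adjusted p = 0.00263). All 4 of its transcripts gave log2 differences between -0.53 and -0.49, but reads common to them were divided among them, so that they are not independent. CDKN1B, which encodes p27, an inhibitor of CDK2 complexes whose gene FOXO factors activate, was at 12.1 and 11.8 RPKM growing and at 14.8 and 14.4 RPKM with PP242 (rose by 22.5%, log2 difference 0.27 ± 0.031 SE, limma adjusted p = 0.00688). For both genes the libraries of the conditions did not overlap.

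The INK4 inhibitors of CDK4 and CDK6 were not called. CDKN2C, which encodes p18 and was the most abundant inhibitor by the sum over transcripts, was at 15.6 and 14.5 RPKM growing and at 15.7 and 16.2 RPKM with PP242. CDKN2D, which encodes p19, was near 1.5 RPKM in all libraries with overlapping groups. CDKN1C, not tested, was at 0.448 and 0.390 RPKM growing and at 0.294 and 0.223 RPKM with PP242.

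**Figure D3:**
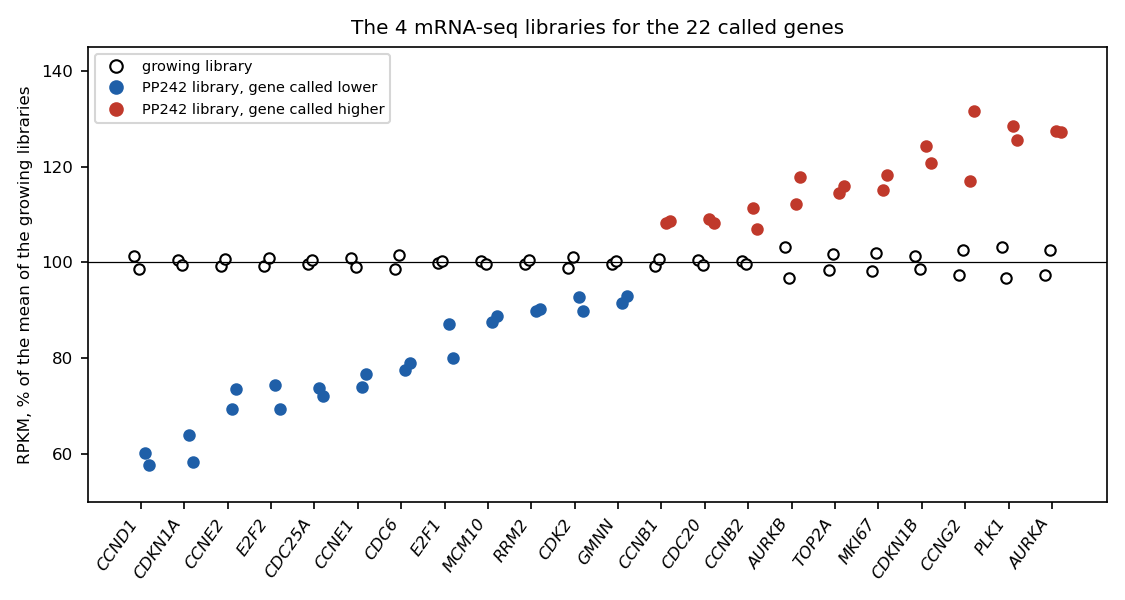
RPKM of each of the 4 mRNA-seq libraries as % of the mean of the growing libraries (vertical axis), for the 22 called members ordered by fold change. Open circles are growing libraries and filled circles PP242 libraries, and in each gene the PP242 libraries lie outside the growing libraries.

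Pocket proteins hold E2F factors in check. RB1, RBL1 and RBL2, which encode the pocket proteins, were not called, with log2 differences from -0.048 to 0.048. The activating E2F factors differed among themselves. E2F1 was at 24.5 and 24.6 RPKM growing and at 21.4 and 19.6 RPKM with PP242 (fell by 16.5%, log2 difference -0.25 ± 0.042 SE, limma adjusted p = 0.0219). E2F2 was at 6.26 and 6.37 RPKM growing and at 4.69 and 4.38 RPKM with PP242 (fell by 28.2%, log2 difference -0.40 ± 0.040 SE, limma adjusted p = 0.00451). These are genes that E2F itself regulates, and their promoter windows above both hold E2F letters. The promoter of E2F3, which was not called, holds E2F letters as well. A link between the letters and the mRNA levels was not tested.

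E2F3, the third activator, was at 11.4 and 12.1 RPKM growing and at 12.1 and 12.0 RPKM with PP242, with overlapping groups. E2F4, a repressor and the most abundant of this group, was at 44.8 and 42.7 RPKM growing and at 41.3 and 42.4 RPKM with PP242 (limma adjusted p = 0.271).

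Licensing loads the MCM helicase onto origins through CDC6 and CDT1, and geminin (GMNN) blocks CDT1 once S phase has begun. CDC6 was at 56.9 and 58.6 RPKM growing and at 44.7 and 45.5 RPKM with PP242 (fell by 21.8%, log2 difference -0.35 ± 0.027 SE, limma adjusted p = 0.00220). CDT1 was at 30.5 and 29.9 RPKM growing and at 30.3 and 30.2 RPKM with PP242 (log2 difference 0.0042 ± 0.025 SE, limma adjusted p = 0.931). The loading partners were thus called differently, although the difference between them was not itself tested.

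MCM10, which helps to activate the helicase, fell by 11.8% (limma adjusted p = 0.0203), from 13.6 and 13.5 RPKM to 11.9 and 12.0 RPKM. GMNN fell by 7.75%, from 33.8 and 34.1 RPKM to 31.1 and 31.6 RPKM (limma adjusted p = 0.0438), a call that was lost when RPKM was summed over its 4 transcripts. None of the 6 helicase genes MCM2 to MCM7 was called by limma, with log2 differences from -0.077 to -0.0059; 2 of the 7 uncalled genes of this group had an unadjusted p under 0.05. MCM7 was the most abundant by the sum over transcripts, and its main transcript was at 108.4 and 107.2 RPKM growing and at 104.3 and 104.5 RPKM with PP242. MCM3 was at 122.6, 123.3, 123.2 and 118.9 RPKM in the same order, with overlapping groups.

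Of the genes for DNA synthesis and its nucleotides, RRM2 fell and the others were not called. RRM2, the regulated subunit of ribonucleotide reductase, was at 31.2 and 31.4 RPKM growing and at 28.2 and 28.3 RPKM with PP242 (fell by 9.91%, log2 difference -0.15 ± 0.024 SE, limma adjusted p = 0.0212). The large subunit RRM1 had a log2 difference of -0.019 (limma adjusted p = 0.628). PCNA, the sliding clamp of the polymerase and the most abundant of the group by the sum over transcripts, was at 99.8 and 101.8 RPKM growing and at 95.9 and 98.1 RPKM with PP242 (limma adjusted p = 0.206). TYMS, which makes thymidylate, had a log2 difference of -0.071 (limma adjusted p = 0.114). All 4 genes were lower by under 10%, with both PP242 libraries below both growing libraries. Over all genes tested, 31.8% were separated in that direction.

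In the group of 10 mitotic genes, 6 were called higher and 1 lower, beside 3.86% and 8.47% of all genes tested. The calls of CDC20, AURKB and MKI67 were among those lost with a library left out, as given above. Those of PLK1, AURKA and TOP2A were kept. PLK1, a kinase of mitotic entry and spindle assembly, was at 67.0 and 62.8 RPKM growing and at 83.4 and 81.5 RPKM with PP242 (rose by 27.1%, log2 difference 0.34 ± 0.035 SE, limma adjusted p = 0.00512). AURKA, the kinase of centrosomes and the spindle, was at 6.19 and 6.53 RPKM growing and at 8.11 and 8.10 RPKM with PP242 (rose by 27.4%, log2 difference 0.31 ± 0.035 SE, limma adjusted p = 0.00704). Its 6 transcripts gave log2 differences from 0.31 to 0.35, and reads common to them were divided among them, so that they are not independent. Summed over transcripts AURKA was at 36.1 RPKM growing and at 46.9 RPKM with PP242.

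AURKB, the kinase of the chromosomal passenger complex, was at 31.0 and 29.0 RPKM growing and at 33.7 and 35.3 RPKM with PP242 (log2 difference 0.20 ± 0.041 SE, limma adjusted p = 0.0379). TOP2A, the topoisomerase that untangles chromosomes, was at 76.7 and 79.3 RPKM growing and at 89.3 and 90.3 RPKM with PP242 (log2 difference 0.20 ± 0.026 SE, limma adjusted p = 0.00937). MKI67, which encodes the proliferation antigen Ki-67, was at 15.8 and 16.5 RPKM growing and at 18.6 and 19.1 RPKM with PP242 (log2 difference 0.21 ± 0.032 SE, limma adjusted p = 0.0158). Each of these genes rose by 15% to 17%, and in each the lower PP242 library was above the higher growing library.

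CDC20, an activator of the anaphase-promoting complex, was the most abundant gene of the group, at 98.2 and 97.3 RPKM growing and at 106.6 and 105.9 RPKM with PP242 (log2 difference 0.12 ± 0.021 SE, limma adjusted p = 0.0261). The checkpoint kinase BUB1 was not called (log2 difference 0.12, limma adjusted p = 0.0800), nor was FOXM1, the factor that activates many of these genes (log2 difference -0.026, limma adjusted p = 0.598). CDC25B, a phosphatase that activates CDK1, was not called either (log2 difference 0.047, limma adjusted p = 0.423).

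CDC25A was the member of this group that fell. It encodes a phosphatase that also activates CDK2 at the entry into S phase, and its gene is an E2F target. It was at 26.8 and 27.1 RPKM growing and at 19.9 and 19.4 RPKM with PP242 (fell by 27.0%, log2 difference -0.44 ± 0.027 SE, limma adjusted p = 0.00120).

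Further genes of the same pathways, 102 in all, gave 99 that could be tested. Of these, 21 were called higher and 6 lower, with a median log2 difference of 0.0049. Over all genes tested, 3.86% were called higher and 8.47% lower. Among the mitotic genes of this list, 18 of 32 were higher and 0 lower by limma (1 lower at an unadjusted p under 0.05). Their log2 differences ran from -0.11 to 0.49 with a median of 0.14. The 14 that were not called include FZR1, UBE2C, BUB3 and MAD2L1, which lay below 0. The lists were chosen with earlier results of these data known. Fewer of the further genes were called higher when a library was left out, as given below. The mitotic genes named next had the largest rises. KIF20A, a kinesin of cytokinesis, was at 20.8 and 21.2 RPKM growing and at 29.5 and 30.3 RPKM with PP242 (rose by 42.2%, limma adjusted p = 0.00102). CENPA, the histone of centromeres, was at 7.25 and 7.20 RPKM growing and at 10.0 and 10.6 RPKM with PP242 (rose by 42.9%, limma adjusted p = 0.00253). HMMR, a spindle protein, rose by 39.0%, and CDCA8, of the passenger complex, by 29.3%.

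Of 35 other replisome genes 4 were lower (11.4%) and 1 higher (2.86%), near the 8.47% and 3.86% of all genes tested. FEN1, the flap nuclease of Okazaki fragments, was at 79.4 and 77.1 RPKM growing and at 62.6 and 63.0 RPKM with PP242 (fell by 19.8%, limma adjusted p = 0.00242). TIPIN, of the fork protection complex, fell by 16.7%, the origin recognition gene ORC1 fell by 11.4% and the helicase cofactor GINS1 fell by 7.87%. ORC5, a subunit of the origin recognition complex, rose by 19.2% (limma adjusted p = 0.00744).

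Of 12 other E2F, DP and MuvB genes, E2F8 alone was called, and it fell by 34.2% (limma adjusted p = 0.00529). The share called lower in this list was 8.33%, beside 8.47% of all genes tested. E2F8 is a repressor that E2F activates, and its libraries were at 2.41 and 2.25 RPKM growing and at 1.54 and 1.53 RPKM with PP242. Among 13 other cyclin, CDK and inhibitor genes, CKS2 rose by 21.5% and CCNF by 20.9%, and SKP2, of the ubiquitin ligase that degrades p27, fell by 9.96%. Of 7 other genes of deoxynucleotide supply, 0 were called by limma, with 3 lower at an unadjusted p under 0.05.

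Targets of p53 were set beside CDKN1A. Of 12 such genes 8 could be tested, with 3 lower and 1 higher. Over all genes tested, 8.47% were called lower and 3.86% higher. BTG2, an antiproliferative gene, was at 5.00 and 5.31 RPKM growing and at 3.23 and 3.40 RPKM with PP242 (fell by 35.8%, limma adjusted p = 0.00263). MDM2 fell by 14.2% and SESN2 fell by 8.69%, while GADD45A rose by 15.4%. SESN1, BBC3, BAX and TP53I3 were not called, with log2 differences of 0.11, -0.024, -0.075 and -0.12.

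**Figure D4:**
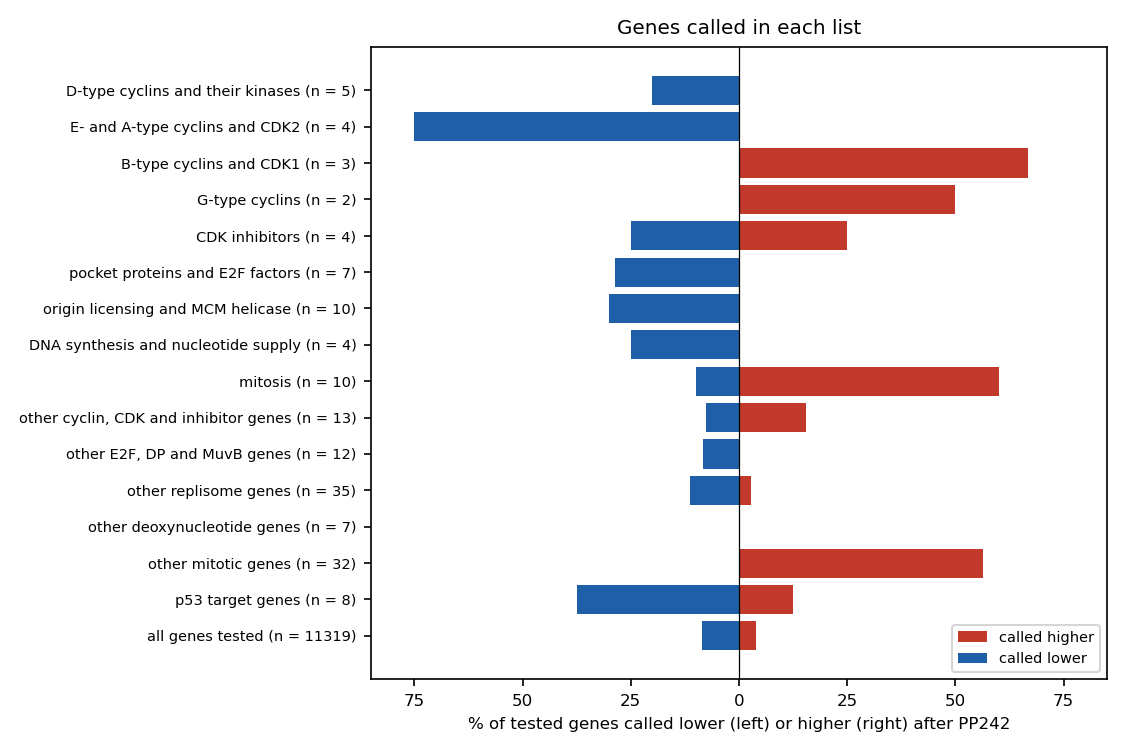
Share of tested genes called lower (blue, left) or higher (red, right) after PP242, in %, for each role group of the members, for the lists of other genes and for all 11319 genes tested. The mitotic lists have 6 of 10 and 18 of 32 genes higher. The groups from E2F factors to DNA synthesis, with 7, 10 and 4 tested genes, have lower calls and none higher by limma. Over all genes tested, 3.86% are called higher and 8.47% lower.

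The second comparison asks whether LARP1 was found on these mRNAs. With 1 PAR-CLIP library per condition it has no replicate check and no test. Across the 50 genes 9 had any listed site, 6 in the growing and 5 in the PP242 library, with CCND2 and CCNG1 in both. Any listed site was found on 10.2% and 11.2% of the 11319 expressed genes in the same libraries, so these counts were near the background. Most sites were far below 1 RPM (reads scaled to library size). At 1 RPM or more, 1 member had a site in the growing library and 3 in the PP242 library, beside 1.78% and 3.91% of the expressed genes. No member site was marked as coding region: the 7 distinct sites of the growing library were in 3'UTRs, and of the 6 in the PP242 library 2 were in 5'UTRs and 4 in 3'UTRs. A site marked as neither 5'UTR nor coding region was counted as 3'UTR. The regions of all listed sites were not counted, so these few sites have no background beside them and show no trait of these mRNAs.

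The site with the most reads was on CDK1 (GRCh37, chr10:62538089-62554610), in the PP242 library only. It covered nucleotides 1863 to 1884 of NM_001786.4, in the 3'UTR, with 575 RPM, and was 326th in that library by RPM. The growing library listed no CDK1 site, while the CDK1 mRNA was at 33.6 ± 0.233 RPKM growing and at 31.7 ± 0.236 RPKM with PP242 (SD, n = 2). The deposited T-to-C column, which is within 10% of a fixed multiple of RPM at 48.9% of the sites of at least 1 RPM in the growing library and at 68.2% in the PP242 library, stood at 100.0% of that multiple here.

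CCNG1 (GRCh37, chr5:162864575-162873157) had a similar site in the PP242 library, at nucleotides 1137 to 1164 of NM_004060.3 in the 3'UTR, with 483 RPM, and its T-to-C value was likewise 100.0% of the multiple. A further CCNG1 site of that library lay in the 5'UTR at nucleotides 100 to 117, with 56.1 RPM, but its T-to-C value was 0.108% of the multiple. In the growing library CCNG1 had a site elsewhere, at nucleotides 2440 to 2454, with 0.0125 RPM. The PP242 sites thus had more RPM than the growing site, which lay at another position, without a replicate to measure the spread. The libraries also differed as a whole. Sites of at least 1 RPM numbered 677 in the growing and 1191 in the PP242 library, and the median site had 0.0052 and 0.0173 RPM.

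CDKN1A (GRCh37, chr6:36644237-36655114) had the strongest member site of the growing library, 18.6 RPM at nucleotides 1057 to 1072 of NM_000389.4 in the 3'UTR, and no listed site in the PP242 library. RBL1 had 4.14 RPM in the PP242 library at nucleotides 3177 to 3199 of NM_183404.1 in the 3'UTR, the transcript that is not the most abundant of the gene. In both, the T-to-C column was low, at 0.0237% and 0.264% of the multiple. Among all sites of at least 1 RPM, 43.3% in the growing and 21.0% in the PP242 library stood below 5% of it.

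The remaining sites were weak. CCND2 had the same 18-nucleotide site in both libraries, in the 3'UTR at nucleotides 2588 to 2605, with 0.031 RPM growing and 0.0616 RPM with PP242. MCM4, CDT1 and E2F4 had sites of 0.0178, 0.0046 and 0.0004 RPM in the growing library, and CDC25B had 0.0051 RPM in its 5'UTR in the PP242 library. Of the 22 members called in mRNA level, CDKN1A was the only 1 with a listed LARP1 site in either library. The other members with a listed site, CCND2, CCNG1, CDK1, RBL1, MCM4, CDT1, E2F4 and CDC25B, were not called. Any listed site was found on 10.2% of the expressed genes in the growing library and on 11.2% in the PP242 library. The share of expressed genes with a site in either library was not computed. A link between mRNA change and LARP1 sites was not tested.

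**Figure D5:**
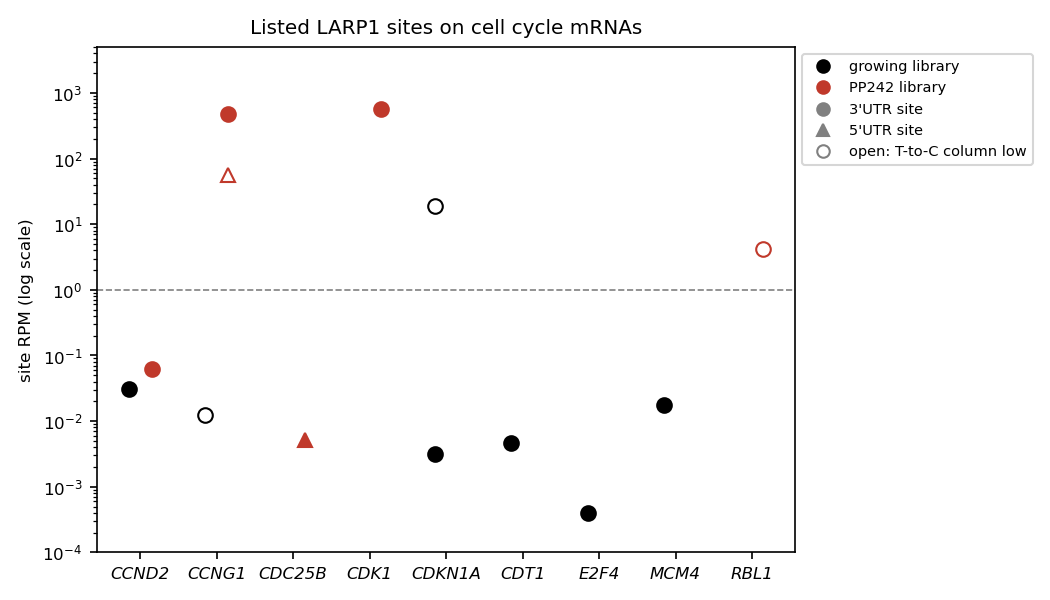
RPM of each distinct LARP1 site on member mRNAs (log scale) in the growing library (black) and the PP242 library (red), as circles in 3'UTRs and triangles in 5'UTRs, open where the T-to-C column is below 90% of its usual multiple of RPM. The dashed line marks 1 RPM, above which lie 4 sites of the PP242 library, on CDK1, CCNG1 (2 sites) and RBL1, and 1 of the growing library, on CDKN1A.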

How the data were processed

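PAR-CLIP of LARP1 (1 library per condition) and mRNA-seq (2 libraries per condition) were made from growing and PP242-treated HEK293T cells. The authors mapped reads to the GRCh37 transcriptome with Bowtie and deposited RPKM per transcript and library from perfectly matching reads, with reads of several loci divided evenly. For PAR-CLIP the authors clustered and smoothed reads, required a T-to-C read in each cluster, and deposited RPM per site, and a ratio of RPM to RPKM. The deposited T-to-C column has no description in the methods and is used as a score, given as % of its most frequent multiple of RPM, 25.8 in the growing and 28.3 in the PP242 library. The number of reads per library is not given in the sources used here, so no counting error is stated.

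The 1273 repeated lines of 39711 in the mRNA-seq table were dropped. The most abundant transcript by mean RPKM stood for a gene. Levels were compared with limma 3.58.1 in R 4.3.3 (lmFit, eBayes with trend) after log2(RPKM + 1) transformation. Transcripts averaging under 1 RPKM were left out, p-values were adjusted by Benjamini and Hochberg, and the threshold was 0.05. This scale shrinks the fold change of low transcripts, and a decrease in percent is of the RPKM. In simulated data for the PP242 comparison with 21014 transcripts and 200 changed, 151 were called at a log2 change of 0.25 and 199 at 0.5, with 8 and 15 unchanged ones called. In data without any change 0 were called. The simulated transcripts were drawn independently, with a normal spread shared by transcripts of similar level. Real transcripts differ in spread and share reads, so these rates need not hold for the calls made here. The study calls the mRNA-seq libraries biological duplicates. The sources used here do not name separate cultures, so p-values measure the spread between these libraries. Promoters were matched by symbol with Python 3.11.15, numpy 2.4.6 and pandas 2.3.3, and figures were drawn with matplotlib 3.10.9.

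The members and lists were chosen with earlier results of these data known. Values per library are given for members that were called, that had a LARP1 site of at least 1 RPM, that were the most abundant of their role group or that differed by over 0.2 (log2), and some others were picked with their values in view. The alternatives were other pseudocounts, filters, scalings, summed transcripts, a fit without trend, a replicate block, left-out libraries and other RPM minimums.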

Additional observations from a re-analysis of the deposited data

Results flagged for a closer look

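A transcript of CDK1 that the table lists without a gene name, NM_001170406.1, went the other way from the named CDK1 transcripts, which were not called. It was at 5.27 and 5.37 RPKM growing and at 6.04 and 6.28 RPKM with PP242, a log2 difference of 0.18 ± 0.035 SE (limma adjusted p = 0.0310). It drew attention because it lies outside the genes compared by name, and the difference from the named transcripts was not tested. The other unnamed CDK1 transcript, NM_001170407.1, had a log2 difference of 0.13 (limma adjusted p = 0.0705).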

How the results depend on the processing

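Members called higher by limma numbered 10, against 6 by eBayes without a trend, 0 without a filter on low RPKM (13 at an unadjusted p under 0.05) and 4 to 7 with 1 library left out. Members called lower numbered 12, against 2 without the filter and 7 to 8 with 1 library left out. Without the filter 38438 transcripts were tested, and the prior degrees of freedom of limma were 1.69 in place of 3.99. Other cell cycle genes called higher numbered 21, against 4 without the filter and 9 to 12 with 1 library left out; those called lower numbered 6, against 3 without a trend, 0 without the filter (20 at an unadjusted p under 0.05), 3 with quantile normalization and 3 to 4 with 1 library left out. Of the p53 targets 1 was higher and 3 lower, against 0 and 0 without the filter (2 and 3 at an unadjusted p under 0.05) and 0 and 1 to 2 with 1 library left out (at least 1 higher at an unadjusted p under 0.05). With every listed LARP1 site counted, 6 members in place of 1 had a site in the growing library and 5 in place of 3 in the PP242 library, where 10.2% and 11.2% of the expressed genes had one. A left-out library leaves a lone sample, assumed to vary like the others.

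The median log2 difference of the members ranged from -0.039 to -0.012 over the 13 alternatives. Of the 22 calls, 10 remained in every alternative except that without a filter. Called members did not change sign, and 8 members that were not called did so somewhere. With quantile normalization RBL2 was at 0.014, MCM2 at 0.0067 and RRM1 at 0.0018, and with median-ratio scaling RBL2 was at 6.6e-06. With 1 library left out CDKN2D ranged from -0.096 to 0.0035 (above 0 without PP242 replicate 2), RBL2 from -0.034 to 0.031 (0.0052 without PP242 replicate 2), E2F3 from -0.0043 to 0.071, CDT1 from -0.0080 to 0.017, MCM2 from -0.025 to 0.013 (0.0010 without PP242 replicate 2), MCM3 from -0.049 to 0.0022 and MCM5 from -0.065 to 0.033. The cause was not tested. The replicate numbers share only a name (correlation of deviations 0.040 over transcripts): with the replicate block 10 members were higher and 11 lower, with CDK2 and AURKB lost and CCNG1 gained.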
